A study of Homo sapiens with 6 samples.

Results

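The lysyl oxidase family consists of 5 genes in the human genome, LOX, LOXL1, LOXL2, LOXL3 and LOXL4, and all 5 were found by symbol among the 17468 genes of the deposited expression table. RNA sequencing gave 6 libraries from 2 human melanoma cell lines, Colo800 and A375, each infected with a virus carrying ETV1-sh2, ETV1-sh1 or a scrambled short hairpin RNA. Both ETV1 hairpins are directed at ETV1, a transcription factor of the ETS family. RNA was harvested on day 4 after infection and each combination of line and hairpin is 1 library, so no group has a replicate. Per the design text infections were in duplicate, and no source used here says whether each column pools that pair. The treatment field of the labels adds 5 nM trametinib for the ETV1-sh2 libraries, DMSO for ETV1-sh1 and 1 uM vemurafinib for scrambled, and the labelled protocol speaks of a transfected siRNA (48 hours) and then a drug (8 hours). No drug appears in the design text, so an effect of a hairpin and of the drug labelled with it cannot be told apart. All cells were grown in 10% serum and both lines are established melanoma lines, without labelled stromal cells.

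Lysyl oxidases are secreted, copper-dependent amine oxidases. They oxidise lysine side chains of collagens and elastin, and the aldehydes so formed condense into the covalent crosslinks that make a matrix stiff and insoluble. LOX and LOXL1 carry a propeptide that is cut off outside the cell, whereas LOXL2, LOXL3 and LOXL4 carry scavenger receptor cysteine-rich domains before the shared catalytic domain. In tumours the family is known for matrix stiffening and for induction by hypoxia and TGF-beta.

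Levels are given as FPKM, counts of sequenced fragments set per kilobase of transcript and to the size of the library. They are set per length and so can be compared between genes. FPKM sums ranged from 589256 to 710498 per library, and 10418 to 11013 genes were at 1 FPKM or more. Absolute depth is unknown. Steps between low values gave depths of 0.769 to 2.10 relative to the A375 scrambled library. These depths rest on the commonest ratio, which 7.19% to 9.88% of the low genes compared held in each other library. ETV1 itself was at 9.80 FPKM with ETV1-sh2, 54.6 with ETV1-sh1 and 180.3 with the scrambled hairpin in Colo800, and at 3.46, 34.6 and 82.8 FPKM with the same hairpins in A375. ETV1-sh2 thus left 5.43% and 4.18% of the scrambled level in the Colo800 and A375 libraries, and ETV1-sh1 left 30.3% and 41.8%. Of 12 melanocyte lineage markers 11 were in the table, with the neural crest factor SOX10 between 353 and 712 FPKM in every library. The pigment enzyme TYR was at 14.8 to 84.9 FPKM in Colo800 and at 0.019 to 0.076 in A375.

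Promoter windows of 300 bases, from 250 before to 50 after a transcript start, were taken from RefSeq on the GRCh38.p14 build for LOX, LOXL1, LOXL3 and LOXL4 (7 windows), because the hairpins target a factor that binds the sequence GGAA. On both strands GGAA occurred in 7 of the 7 windows and in 95.5% of all 35116 windows. The longer word GGAAGT occurred in 5 of the 7, against 22.8% of all windows, and these hold 4 distinct places since 2 windows of LOX overlap. CCGGAA, which also contains GGAA, occurred in 0 of the 7 and in 17.2% of all. A match is a description of letters, not of binding. LOX also held a GGAAGT match, at chr5:122077353-122077374, and LOXL1 held none. No window of LOXL2 was used. The matches of the 2 genes whose values follow first are shown 5′ to 3′ on the gene's strand, which is the minus strand for both, with GGAAGT or its reverse complement in capitals. They lie at chr10:98268388-98268409 for LOXL4, starting 207 bases before the transcript start, and at chr2:74553930-74553951 and chr2:74549481-74549502 for LOXL3, at 2 different starts.
LOXL4: cccccgggACTTCCcggccccg
LOXL3, upstream start: ttttttttGGAAGTcctaggac
LOXL3, downstream start: gggctggtGGAAGTcaggcttc

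LOXL4 (ENSG00000138131), an amine oxidase of the subgroup with scavenger receptor domains, fell with each ETV1 hairpin, and it was lowest with the hairpin that lowered ETV1 less. In Colo800 it stood at 197 FPKM with ETV1-sh2, 46.0 with ETV1-sh1 and 378 with the scrambled hairpin. In A375 it stood at 59.0 FPKM with ETV1-sh2, 20.9 with ETV1-sh1 and 128 with the scrambled hairpin. All 4 ETV1-hairpin libraries therefore lay below the scrambled library of their line, as was the case for 16.8% of all 11129 genes tested. In both lines ETV1-sh1 lay below ETV1-sh2 and ETV1-sh2 below scrambled, an order held by 3.71% of the genes tested and looked for after the values were seen. ETV1-sh2 left 52.2% of the scrambled LOXL4 level in Colo800 and 46.1% in A375, while ETV1-sh1 left 12.2% and 16.3%. The order of the hairpins was thus the opposite of their order for ETV1. In bulk RNA fewer cells expressing a gene and less RNA per cell cannot be told apart. AL139241.1 overlaps LOXL4 on the opposite strand in GENCODE release 29 and its level was not analysed here. No source used here says whether the counting was strand-specific, so reads of overlapping genes cannot be told apart for any member.

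**Figure D1:**
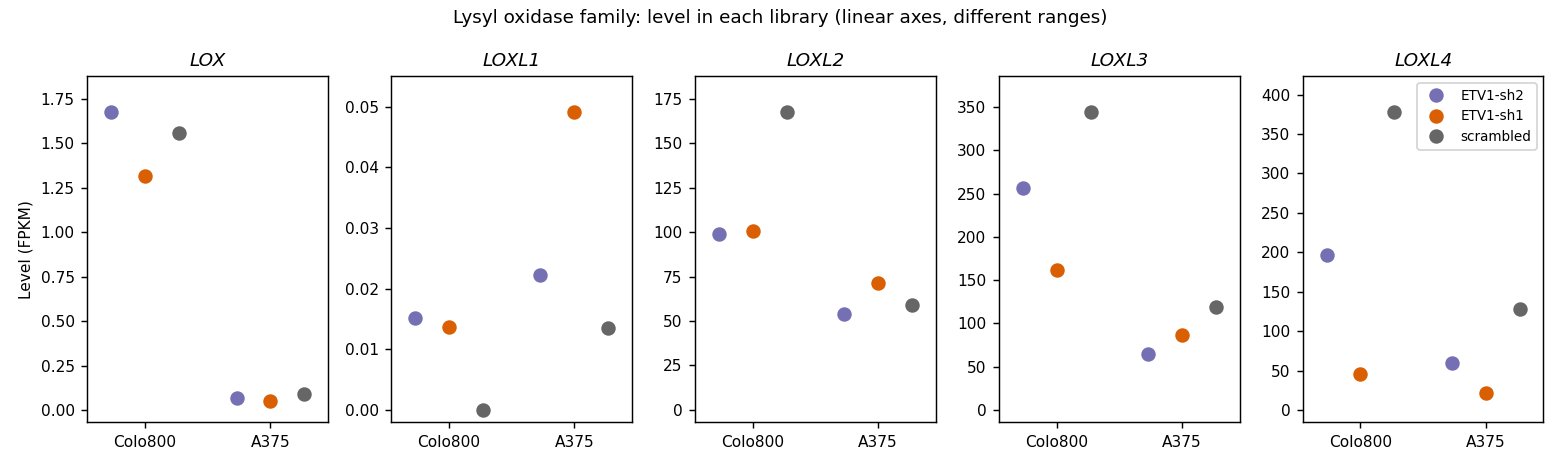
Level in FPKM of each lysyl oxidase family member (1 panel per gene, linear axes of different ranges) in the 3 Colo800 and the 3 A375 libraries, 1 point per library, coloured by hairpin. LOXL4 was lowest with ETV1-sh1 in both lines (46.0 and 20.9 FPKM), and LOX was at 1.31 FPKM or more in Colo800 only.

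The change of LOXL4 was tested with limma on log2(FPKM + 1), with p-values adjusted by the Benjamini-Hochberg method over the 11129 genes with a mean of at least 1 FPKM. LOXL2, LOXL3 and LOXL4 passed that filter, and LOX and LOXL1 did not. Against scrambled, LOXL4 with ETV1-sh1 fell by 2.78 on the log2 scale (SE 0.196, 95% interval -3.26 to -2.31, adjusted p = 0.0157, lower in 2 of 2 lines). That was the number 3 largest decrease among the genes tested, of which 1.51% passed as lower. With ETV1-sh2 it fell by 1.02 (SE 0.196, 95% interval -1.50 to -0.55, adjusted p = 0.0237, lower in 2 of 2 lines), a comparison in which 9.00% of genes passed as lower. ETV1-sh2 against ETV1-sh1 gave a difference of 1.76 (SE 0.196, 95% interval 1.29 to 2.24, adjusted p = 0.00772, higher in 2 of 2 lines), where 6.82% of genes passed as higher. The 2 comparisons with scrambled share the same scrambled libraries. The lines are the only replication in these 3 comparisons, with 2 residual degrees of freedom. Limma adds a prior of 4.32 degrees of freedom, taken from the spread of all genes tested. The p-values thus reflect only how far these 6 libraries spread, in LOXL4 and in all genes, which may be technical. With no filter on low values none of the 3 comparisons passed (adjusted p = 0.144, 0.0787 and 0.0570 in the order given).

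Leaving out single libraries, which leaves 1 residual degree of freedom, kept the direction of all 3 LOXL4 differences but not every call. For ETV1-sh1 the adjusted p was 0.240 without the Colo800 ETV1-sh1 library (change -2.52), 0.175 without the A375 ETV1-sh1 library (-3.05), 0.0875 without Colo800 scrambled (-2.71) and 0.0898 without A375 scrambled (-2.85). Calls over the whole table went with these: 0 of 11129 genes passed as lower without either ETV1-sh1 library (872 and 881 had an unadjusted p under 0.05), and 1 gene did without Colo800 scrambled (TIMP3) and without A375 scrambled (TMEM50A). For ETV1-sh2 the LOXL4 adjusted p was 0.0637 without A375 ETV1-sh2 (-0.82), 0.1345 without Colo800 scrambled (-0.95) and 0.1185 without A375 scrambled (-1.09), settings in which 6.13%, 2.01% and 0.575% of all genes passed as lower. For ETV1-sh2 against ETV1-sh1 it was 0.0775 without Colo800 ETV1-sh1 (1.49) and 0.0907 without A375 ETV1-sh1 (2.03), where 0 of 11129 genes passed as higher (1541 and 1286 at an unadjusted p under 0.05).

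Within a line no test was possible, and the count took genes that ETV1-sh2 and ETV1-sh1 both moved at least 2-fold in 1 direction on the log2(FPKM + 1) scale. LOXL1 in both lines and LOX in A375 were too low with the scrambled hairpin to be counted as lower on that scale. LOX and LOXL1 are also not among the genes tested. In Colo800 LOXL4 was at -0.94 with ETV1-sh2 and -3.01 with ETV1-sh1, so that 0 of the 5 members were counted, against 0.908% of genes tested as lower. In A375 LOXL4 was at -1.11 and -2.56 and was the 1 member counted, against 1.63% of genes tested. At 1.5-fold the members counted were LOXL2 and LOXL4 in Colo800, against 4.19% of genes tested as lower, and LOXL4 in A375, against 4.99%.

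LOXL3 (ENSG00000115318), an amine oxidase needed for palate and cartilage development in mice, lay below the scrambled library in 4 of 4 hairpin libraries, by smaller amounts. In Colo800 it was at 256 FPKM with ETV1-sh2, 161 with ETV1-sh1 and 344 with the scrambled hairpin. In A375 it was at 64.4 FPKM with ETV1-sh2, 86.3 with ETV1-sh1 and 119.5 with the scrambled hairpin. The order of the hairpins differed between the lines, with ETV1-sh1 lower in Colo800 and ETV1-sh2 lower in A375. Neither hairpin passed for LOXL3 in limma. The log2 difference was -0.65 with ETV1-sh2 (95% interval -1.28 to -0.021, adjusted p = 0.132) and -0.78 with ETV1-sh1 (95% interval -1.41 to -0.15, adjusted p = 0.189). With single libraries left out LOXL3 kept its direction, from -1.04 to -0.27 with ETV1-sh2 and from -1.20 to -0.35 with ETV1-sh1. Such fits leave 1 library in a group. Whether LOXL3 passed changed with the library left out, as did the share of all genes that passed. Between the hairpins LOXL3 differed by 0.13 (95% interval -0.51 to 0.76). HTRA2 and DOK1 overlap LOXL3 on the opposite strand in GENCODE release 29, at 19.7 to 38.3 and 5.35 to 5.77 FPKM.

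LOXL2 (ENSG00000134013), which is known for crosslinking type IV collagen and for a link with the transcription factor SNAI1 in epithelial-mesenchymal transition, lay below the scrambled library in 3 of 4 hairpin libraries, the exception being ETV1-sh1 in A375. In Colo800 it was at 98.8 FPKM with ETV1-sh2, 101 with ETV1-sh1 and 167 with the scrambled hairpin. In A375 it was at 53.8 FPKM with ETV1-sh2, 71.1 with ETV1-sh1 and 59.0 with the scrambled hairpin. The Colo800 hairpin libraries thus lay at 59.1% and 60.1% of their scrambled library, while the A375 hairpin libraries lay on either side of theirs. The difference between Colo800 and A375 in the change over both hairpins was -0.81 (SE 0.476, 95% interval -2.002 to 0.39, adjusted p = 1.00 in limma), so a difference between the lines was not established. LOXL2 did not pass for ETV1-sh2 (-0.44, 95% interval -1.05 to 0.16, adjusted p = 0.250) or ETV1-sh1 (-0.23, 95% interval -0.83 to 0.37, adjusted p = 0.657). ENTPD4, which overlaps LOXL2 on the same strand in GENCODE release 29, was at 80.8 FPKM with ETV1-sh2, 58.8 with ETV1-sh1 and 45.2 with scrambled in Colo800, and at 53.4, 41.2 and 23.1 FPKM in A375.

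**Figure D2:**
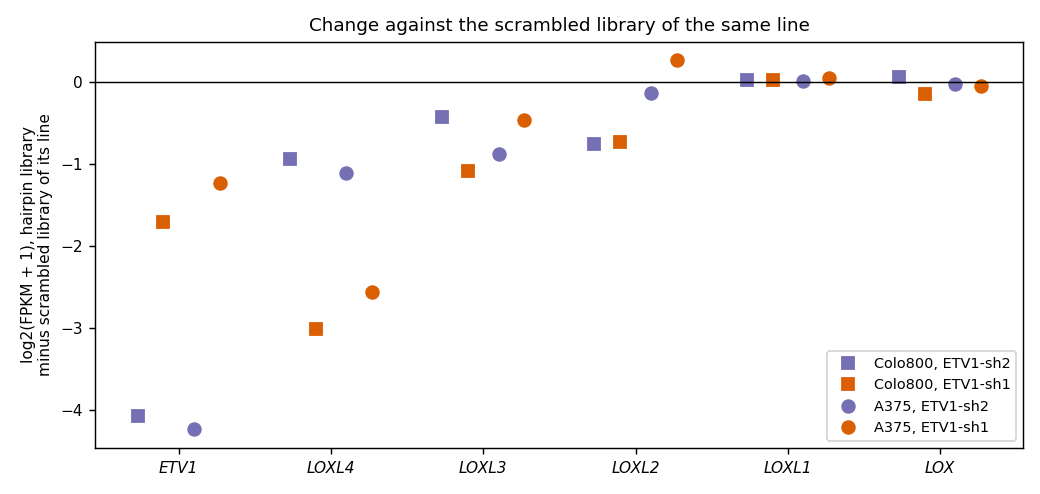
Difference of log2(FPKM + 1) between each ETV1-hairpin library and the scrambled library of its line, for ETV1 and the 5 family members, with squares for Colo800 and circles for A375. LOXL4 lay at -3.01 and -2.56 with ETV1-sh1 and at -0.94 and -1.11 with ETV1-sh2, the reverse of the order seen for ETV1.

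LOX (ENSG00000113083), the founding member, which is induced by hypoxia and needed for arterial wall integrity, was near the lower limit of the measurement in A375. It was at 1.67 FPKM with ETV1-sh2, 1.31 with ETV1-sh1 and 1.56 with scrambled in Colo800, and at 0.0701, 0.0477 and 0.0889 FPKM in A375. The hairpin libraries of Colo800 lay on either side of the scrambled one. LOXL1 (ENSG00000129038), which takes part in elastic fibre renewal, was at 0.0152, 0.0136 and 0 FPKM in Colo800 with ETV1-sh2, ETV1-sh1 and scrambled, and at 0.0223, 0.0491 and 0.0136 FPKM in A375. It was never above 0.0491 FPKM, and no difference was detectable at that level. SRFBP1, which overlaps LOX on the opposite strand, was at 8.84 to 14.3 FPKM. LOXL1-AS1 overlaps LOXL1 and AC090197.1 overlaps LOXL2, each on the opposite strand, and their levels were not analysed here.

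Over both hairpins together, 4 libraries against 2 with the line as a block, 0 members and 0 of all 11129 genes passed in limma. At an unadjusted p under 0.05 the members were LOXL4 and LOXL3, against 10.8% of all genes. LOXL4 was at -1.90 (SE 0.634, 95% interval -3.43 to -0.38, adjusted p = 0.414), LOXL3 at -0.71 (SE 0.252, 95% interval -1.32 to -0.11, adjusted p = 0.426) and LOXL2 at -0.34 (SE 0.250, 95% interval -0.94 to 0.26, adjusted p = 0.620). For LOXL4 the gap between the hairpins counts as residual spread in this fit. Without the Colo800 scrambled library LOXL2 turned to 0.066.

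**Figure D3:**
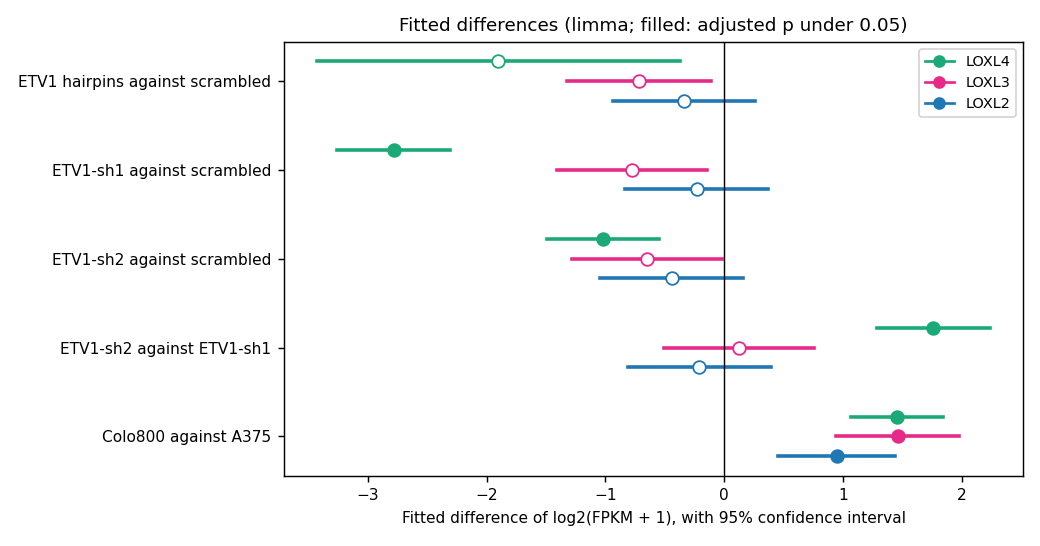
Fitted differences of log2(FPKM + 1) with 95% confidence intervals for LOXL4, LOXL3 and LOXL2 in 5 comparisons, from limma, with filled points where the adjusted p was under 0.05. LOXL4 was past the threshold in each comparison but that of both hairpins together (-1.90).

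The make-up of the family shifted with these changes. With the scrambled hairpin LOXL4 and LOXL3 were close to each other and above LOXL2 in both lines. Their shares of the family FPKM sum were 42.4% and 38.6% in Colo800, with LOXL2 at 18.8%, and 41.8% and 39.0% in A375, with LOXL2 at 19.2%. With ETV1-sh1 LOXL4 was the lowest of the 3, at 14.9% in Colo800 and 11.7% in A375. With ETV1-sh2 it made up 35.6% and 33.3%. The ratio of LOXL4 to LOXL3 was 0.769 with ETV1-sh2, 0.285 with ETV1-sh1 and 1.10 with scrambled in Colo800, and 0.915, 0.242 and 1.07 in A375. The family sum was 554 FPKM with ETV1-sh2, 309 with ETV1-sh1 and 891 with scrambled in Colo800, and 177, 178 and 307 FPKM in A375. Each hairpin library held 34.7% to 62.2% of the family sum of its scrambled library.

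**Figure D4:**
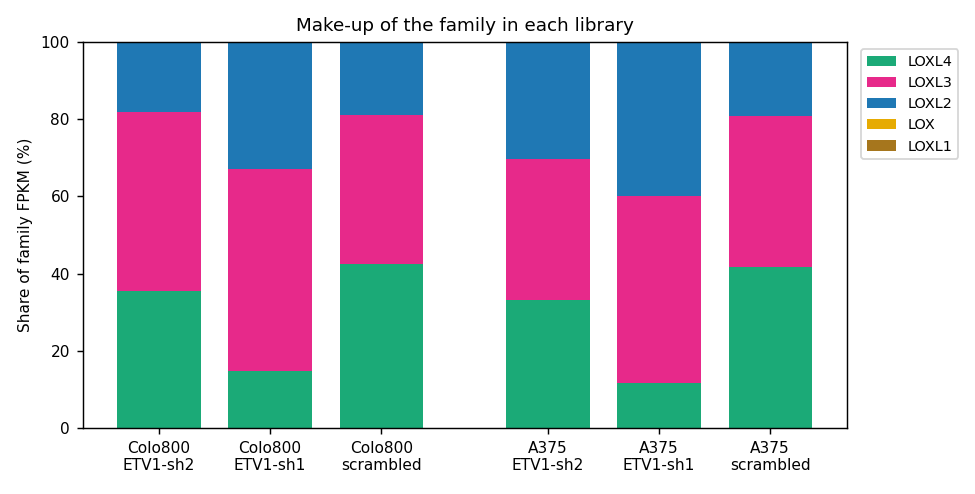
Share in percent of the summed FPKM of the 5 family members held by each member, 1 bar per library. LOXL4 fell to 14.9% and 11.7% of the sum with ETV1-sh1, against 42.4% and 41.8% with the scrambled hairpin, and LOX and LOXL1 are too small to see.

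Between the lines, each expressed member was higher in Colo800. With the scrambled hairpin LOXL2, LOXL3 and LOXL4 were 2.84, 2.88 and 2.95 times as high in FPKM in Colo800 as in A375. With ETV1-sh2 the ratios were 1.84, 3.98 and 3.34, and with ETV1-sh1 they were 1.41, 1.87 and 2.199. In limma, with hairpin as a covariate, the log2 difference of Colo800 minus A375 was 0.95 for LOXL2 (SE 0.204, adjusted p = 0.00859), 1.46 for LOXL3 (SE 0.213, adjusted p = 0.00205) and 1.46 for LOXL4 (SE 0.160, adjusted p = 0.000773). Of all genes 31.8% passed as higher in Colo800, so that a pass is common in this comparison. The 3 hairpin libraries of a line serve as its replicates in this fit, so its p-values do not measure spread between cultures of a line. LOXL3 averaged 254 ± 91.5 FPKM in Colo800 and 90.1 ± 27.7 in A375, and LOXL2 averaged 122 ± 39.1 and 61.3 ± 8.89 FPKM (SD over the 3 hairpins), with no overlap between lines for either. Of all genes tested 26.2% had every Colo800 library above every A375 library. LOXL4 averaged 207 ± 166 FPKM in Colo800 and 69.3 ± 54.3 in A375, and its lines overlapped through the Colo800 ETV1-sh1 library. LOX, tested only when genes with low values were kept, differed by 1.23 in limma (with no filter SE 0.0693, adjusted p = 0.00458 among 16132 genes). Of those genes 20.7% passed as higher in Colo800. With a mean of at least 0.1 FPKM, LOX had an SE of 0.129 (adjusted p = 0.000974 in limma), where 27.9% of 13369 genes passed as higher. Its FPKM was 17.5 to 27.5 times as high in Colo800, a ratio against A375 values under 0.1 FPKM.

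Averaged over both hairpins, the changes of LOXL4 and LOXL3 differed between the lines by -0.14 (95% interval -3.65 to 3.37) and -0.083 (95% interval -1.57 to 1.40). The hairpins of a line count as replicates in this fit, so the gap between them makes up its spread. These wide intervals leave room for large differences, and a difference between lines under a single hairpin was not tested. For LOXL3, Colo800 and A375 lay at -1.09 and -0.47 with ETV1-sh1 and at -0.42 and -0.88 with ETV1-sh2, gaps of opposite direction. In that comparison 0 of 11129 genes passed in limma and 0.593% had an unadjusted p under 0.05.

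Other genes of the crosslinking pathway were counted in 5 lists, with 67 of 70 genes in the table and 53 tested. With ETV1-sh2 6 rose and 7 fell, against 7.73% and 9.00% of all genes tested, and with ETV1-sh1 1 rose and 0 fell, against 0.773% and 1.51%. Leaving out each library in turn gave 0 to 7 higher and 0 to 10 lower genes with ETV1-sh2, beside 0.171% to 8.23% and 0.575% to 9.51% of all genes tested. Without A375 scrambled 0 and 0 passed, beside 0.171% and 0.575% of all genes, and without Colo800 scrambled 1 and 1, beside 0.881% and 2.01%. All 13 genes called with ETV1-sh2 kept their direction with each library left out. COL1A1 ranged from 1.76 to 2.01 and YAP1 from -2.28 to -1.62 in these fits. SLC31A2 ranged from 0.66 to 0.86, COMMD1 from 0.58 to 0.75 and TGFBR1 from -1.25 to -0.76. Most of the 13 calls were lost in most of these fits, each of which leaves 1 library in a group. With no filter on low values 0 of these genes passed with either hairpin. Of the tested substrates of the family, 9 collagens, COL1A1 rose with ETV1-sh2 (1.88, adjusted p = 0.00906) and COL5A1 fell (-1.11, adjusted p = 0.0192), and none passed with ETV1-sh1. COL1A1 was at 12.1 FPKM with ETV1-sh2, 3.08 with ETV1-sh1 and 2.44 with scrambled in Colo800, and at 9.61, 3.33 and 1.97 FPKM in A375. The median of that list was -0.31 with ETV1-sh2 and 0.28 with ETV1-sh1, beside 0.046 and 0.0017 over all genes tested. COL4A1, a chain of the basement membrane collagen that LOXL2 acts on, was at 215, 164 and 276 FPKM in Colo800 and 75.7, 152 and 105 FPKM in A375 with ETV1-sh2, ETV1-sh1 and scrambled. COL11A1 was at 101 to 166 FPKM in Colo800 and under 1 FPKM in A375.

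Of 10 matrix partners tested, LTBP4, a TGF-beta binding protein of elastic fibres, rose with ETV1-sh2 (0.80, adjusted p = 0.0472) and SPARC, a collagen-binding glycoprotein, fell (-0.92, adjusted p = 0.0419). That is 1 higher and 1 lower with ETV1-sh2, beside 7.73% and 9.00% of all genes tested. MFAP2, a microfibril protein, rose with ETV1-sh1 (1.07, adjusted p = 0.0431). With single libraries left out LTBP4 lay between 0.52 and 1.08, SPARC between -1.27 and -0.57 and MFAP2 between 0.93 and 1.21. Each of these calls was lost in most of those fits. FBLN5, which tethers LOXL1 to elastic fibres, was at 12.4 FPKM with ETV1-sh2, 13.2 with ETV1-sh1 and 8.88 with scrambled in Colo800, and at 1.38, 0.552 and 0.332 in A375. Medians were -0.098 with ETV1-sh2 and 0.16 with ETV1-sh1.

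Among 10 tested genes of procollagen processing and collagen modification, PCOLCE, which enhances the protease that also cuts the LOX propeptide, fell with ETV1-sh2 (-1.04, adjusted p = 0.0317). No other gene of this list passed with ETV1-sh2, beside 9.00% of all genes tested as lower. With single libraries left out PCOLCE lay between -1.41 and -0.66, and its call was lost in most of those fits. PCOLCE was at 152 FPKM with ETV1-sh2, 128 with ETV1-sh1 and 234 with scrambled in Colo800, and at 54.3, 73.0 and 150.5 FPKM in A375. PCOLCE2, a related enhancer, was at 44.6 FPKM with ETV1-sh2, 95.9 with ETV1-sh1 and 65.6 with scrambled in Colo800, and at 23.7, 22.2 and 53.6 FPKM in A375. It did not pass with ETV1-sh2 (-0.84, adjusted p = 0.176) or ETV1-sh1 (-0.34, adjusted p = 0.676), and in Colo800 it lay above scrambled with ETV1-sh1. The protease, BMP1, was at 61.5, 58.1 and 52.4 FPKM in Colo800 and 23.3, 29.8 and 26.4 FPKM in A375 with the same hairpins, and did not pass (0.027 with ETV1-sh2, adjusted p = 0.930). PLOD2, a lysyl hydroxylase of collagen, was at 71.6, 78.6 and 149 FPKM in Colo800 and 32.8, 38.4 and 40.7 FPKM in A375 (-0.68 with ETV1-sh2, adjusted p = 0.0984). The list median was -0.41 with ETV1-sh2 and 0.0040 with ETV1-sh1.

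Copper reaches lysyl oxidases through transporters of the secretory pathway. Of 9 copper supply genes 3 rose with ETV1-sh2 in limma and 0 fell, beside 7.73% and 9.00% of all genes tested. These were the copper pump ATP7B (1.10, adjusted p = 0.0240), SLC31A2 (0.76, adjusted p = 0.0451) and COMMD1 (0.66, adjusted p = 0.0492). Each of these calls was lost in most fits with a library left out. ATP7A, the pump that loads secreted copper enzymes, was at 7.07 FPKM with ETV1-sh2, 9.76 with ETV1-sh1 and 6.74 with scrambled in Colo800, and at 12.6, 11.1 and 5.85 FPKM in A375. The list median was 0.58 with ETV1-sh2 and 0.43 with ETV1-sh1, where 0 passed, beside 0.773% of all genes as higher and 1.51% as lower.

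Of 15 known upstream factors, TGFB1, a growth factor that induces lysyl oxidases in fibroblasts, rose with ETV1-sh2 (1.07, adjusted p = 0.0201). The TGF-beta receptor gene TGFBR1 (-1.003, adjusted p = 0.0366), the repressor ZEB2 (-1.13, adjusted p = 0.0260) and the Hippo pathway coactivators YAP1 (-1.95, adjusted p = 0.0100) and WWTR1 (-1.07, adjusted p = 0.0297) fell with it. These were 1 higher and 4 lower of the 15, beside 7.73% and 9.00% of all genes tested. With single libraries left out TGFB1 lay between 0.84 and 1.31, ZEB2 between -1.46 and -0.80 and WWTR1 between -1.46 and -0.68. The calls of TGFBR1, ZEB2 and WWTR1 were lost in most of those fits. With ETV1-sh1 0 of the 15 passed in limma, beside 0.773% of all genes as higher and 1.51% as lower. TGFB1 was at 80.7 FPKM with ETV1-sh2, 53.1 with ETV1-sh1 and 33.3 with scrambled in Colo800, and at 159, 89.0 and 85.1 FPKM in A375. TGFB2 was at 1.28, 2.35 and 3.76 FPKM in Colo800 and 0.240, 0.507 and 0.642 FPKM in A375, and did not pass. HIF1A, the hypoxia factor, did not pass with either hairpin.

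In Colo800 against A375 31.8% of all genes passed as higher and 25.3% as lower. Of the 9 collagens 2 were higher and 4 lower, and of the 10 matrix partners 6 were higher and 4 lower. Of the 10 processing genes 9 were higher and 0 lower, of the 9 copper supply genes 3 and 0, and of the 15 upstream factors 10 and 3.

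**Figure D5:**
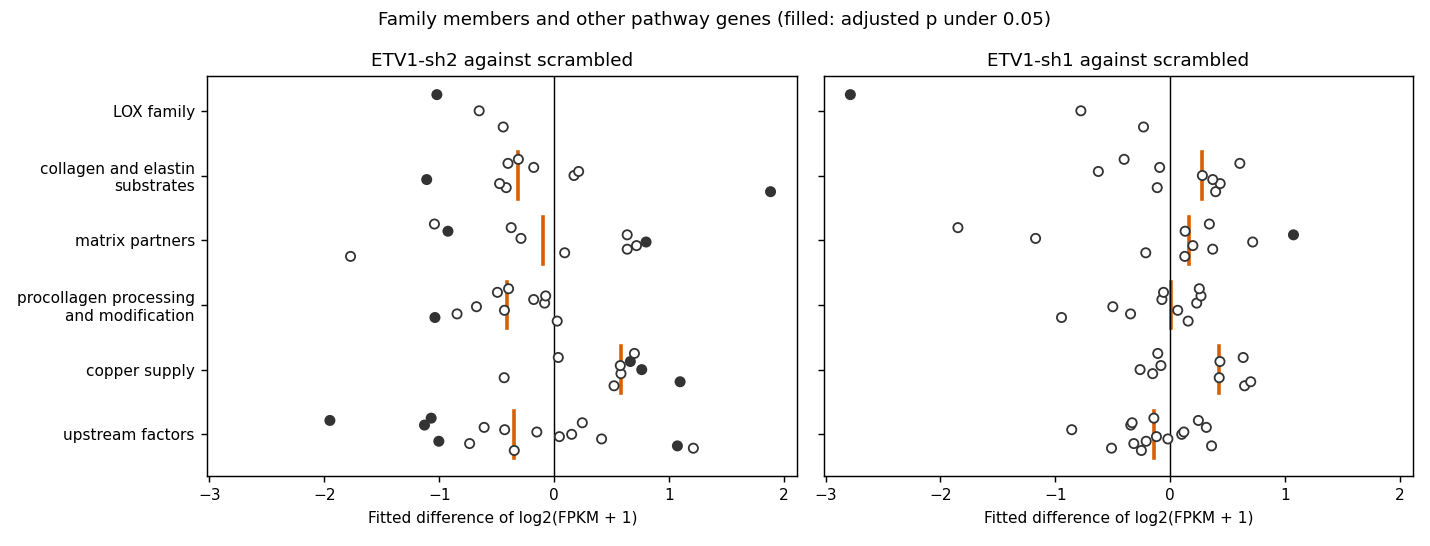
Fitted differences of log2(FPKM + 1) for the 3 tested family members and the 53 tested pathway genes in 5 lists, ETV1-sh2 against scrambled on the left and ETV1-sh1 against scrambled on the right. Filled points had an adjusted p under 0.05 and vertical bars are list medians. LOXL4 at -2.78 lies apart from the pathway genes on the ETV1-sh1 side.

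Markers of other cell types were also read. The 10 fibroblast markers summed to 81.6 FPKM with ETV1-sh2, 54.5 with ETV1-sh1 and 62.8 with scrambled in Colo800, and to 38.5, 19.3 and 16.7 FPKM in A375. FAP held most of the Colo800 sum, at 45.8 FPKM with ETV1-sh2, 36.5 with ETV1-sh1 and 47.3 with scrambled. LUM was at 8.17, 3.33 and 3.45 FPKM in Colo800 and 14.0, 7.78 and 7.59 FPKM in A375 with the same hairpins. PDGFRB was at 7.65, 3.96 and 1.96 FPKM in Colo800 and 6.99, 4.11 and 3.11 FPKM in A375, and DCN at 0.441, 0.119 and 0.113 FPKM in Colo800 and 4.08, 0.247 and 0.423 FPKM in A375. These 3 were thus highest with ETV1-sh2 in both lines, as was COL1A1, but no other marker of the 10 was. FAP and POSTN were highest with the scrambled hairpin in both lines. PDGFRA and THY1 were highest with ETV1-sh1 in Colo800. COL1A2 was at 1.32, 0.178 and 1.78 FPKM in Colo800 and at most 0.073 in A375, and COL3A1 was at most 0.106 FPKM in any library. The 11 melanocyte lineage markers summed to 890 FPKM with ETV1-sh2, 960 with ETV1-sh1 and 1369 with scrambled in Colo800, and to 490, 429 and 705 FPKM in A375. SOX10 held most of each sum, at 549, 562 and 712 FPKM in Colo800 and 410, 353 and 556 FPKM in A375. Not every marker fell: TYR was at 14.8, 84.9 and 34.4 FPKM in Colo800, and EDNRB at 7.94, 16.4 and 6.99 FPKM in A375. MLANA was at most 1.85 FPKM and KIT at most 0.012 FPKM in any library. The 6 keratinocyte markers summed to 52.9 FPKM with ETV1-sh2, 46.3 with ETV1-sh1 and 22.7 with scrambled in Colo800, and to 26.4, 18.5 and 25.5 FPKM in A375. In Colo800 most of that was the desmosome gene DSP, at 46.1, 39.7 and 17.2 FPKM, while KRT1 and TP63 were at most 0.052 and 0.06 FPKM in any library. The 5 endothelial markers in the table summed to 1.42, 2.57 and 2.54 FPKM in Colo800 and to 3.34, 11.3 and 3.44 FPKM in A375, where ETV1-sh1 was the highest with TIE1 at 5.60 and KDR at 4.77 FPKM. CDH5 was at most 0.023 FPKM. Sums over 5 leukocyte markers were at most 0.308 FPKM. The part of these markers in the changes of the family was not tested.

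Genes whose log2(FPKM + 1) was most like that of each tested member over the 6 libraries were listed as a description. The points share libraries and the gap between lines. For LOXL4 they were RTF1 (Pearson r = 0.997), DCUN1D1 (r = 0.994) and PMP22 (r = 0.994). PMP22 was at 166 FPKM with ETV1-sh2, 33.3 with ETV1-sh1 and 250.3 with scrambled in Colo800, and at 48.0, 21.3 and 103 FPKM in A375. For LOXL3 they were WDR53, DST and LRRC15 (r = 0.996, 0.996 and 0.995), and for LOXL2 they were LIN54, DYNC1H1 and GNA13 (r = 0.998, 0.992 and 0.990). Between the members r was 0.909 for LOXL2 and LOXL3, 0.787 for LOXL3 and LOXL4 and 0.591 for LOXL2 and LOXL4.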

How the data were processed

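RNA sequencing of 6 libraries was deposited as 1 table of FPKM, which the authors made against hg19. Per the submitters' processing notes the tools were STAR (version 2.4), Cufflinks (version 2.2.1) and Cuffnorm. No source used here states the annotation, the scaling method, filters or strandedness. Fits used limma 3.58.1 in R 4.3.3 (lmFit and a trended eBayes) on log2(FPKM + 1), a scale that understates changes of low genes, in the 11129 genes with a mean of at least 1 FPKM, with Benjamini-Hochberg adjustment over all of them and a threshold of 0.05. ETV1 hairpins against scrambled had the line as a block (3 residual degrees of freedom). Single hairpins and lines came from a fit with line and 3 hairpin levels (2), and the difference between lines from a mean per line and knockdown state (2). The fits were tested on simulated data with independent noise and large changes, which does not show how they perform with the spread of these libraries. All 5 members were named. Per pathway list, up to 3 genes with the largest moderated statistic over both hairpins were named, and the other genes past the threshold, BMP1, HIF1A and the individual markers of cell types were added after their values were seen. Members and lists were chosen with earlier results of these data known. Alternatives were other pseudocounts (0.1, 0.5), other filters, median centring, no variance trend and single libraries left out. Promoter windows came from RefSeq and overlaps from GENCODE release 29, by symbol, without transfer of coordinates.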

Additional observations from a re-analysis of the deposited data

How the results depend on the processing

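Of the LOXL2, LOXL3 and LOXL4 differences in the 6 comparisons, 105 of 108 recomputed values under other pseudocounts, filters, centring or no variance trend kept direction and call. The other 3 were the LOXL4 calls with no filter on low values, where the number of members past the threshold was 0 for ETV1-sh2, 0 for ETV1-sh1 and 0 for ETV1-sh2 against ETV1-sh1. In that setting 0 of 16132 genes passed in each of these 3 comparisons. At 1.5-fold in place of 2-fold the count within Colo800 was 2, where 4.19% of all genes were counted as lower. With single libraries left out the number of members past the threshold ranged from 0 to 2 for ETV1-sh2, from 0 to 2 for ETV1-sh1 and from 0 to 1 for ETV1-sh2 against ETV1-sh1, and stayed at 3 for Colo800 against A375. Over all genes the share past the threshold ranged in these fits from 0.746% to 17.7%, from 0% to 7.49%, from 0% to 15.6% and from 39.5% to 52.1% in the same order. Of 102 such member values 10 changed sign, none of them past the threshold. LOXL2 ranged from -0.74 to 0.066 over both hairpins, from -0.64 to 0.17 for ETV1-sh1 and from -0.55 to 0.13 for ETV1-sh2 against ETV1-sh1. LOXL3 ranged from -0.30 to 0.55 for ETV1-sh2 against ETV1-sh1 and from -0.42 to 0.25 for the difference between lines, where LOXL4 ranged from -1.18 to 0.90. Of 13 pathway genes called with ETV1-sh2, 9 remained with a mean of at least 0.1 FPKM, settings added after seeing the data. The cause was not tested. Hairpins were compared within lines, with the line as a term of each fit, and the labels carry no replicate numbers that would give another pairing. The difference between lines could not be fitted without a scrambled library. Absolute depth is unknown, so LOXL1, and LOX in A375, cannot be resolved.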
